A study of Mus musculus with 4 samples.

Results

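The 43 genes described here are the interferon response genes and RNA sensors of AML12 cells, a mouse hepatocyte line, picked by symbol from the 52192 genes of the deposited table. The list is one of gene functions and its rule uses no measured value, although it was drawn up with earlier results of these data known. Each of the 43 symbols matched 1 gene. It holds 8 interferon regulatory and STAT factors, 4 interferon receptor chains, 6 sensors, adaptors and kinases of nucleic acid sensing, and 25 interferon-induced effectors. AML12 cells come from a mouse transgenic for human TGF-alpha. They received lentivirus with a control short hairpin RNA (shCtrl, 2 libraries) or a hairpin against Safb (shSafb, 2 libraries). The product of Safb, scaffold attachment factor B, is a nuclear protein with RNA- and DNA-binding domains. Per the labels, both groups were infected, were kept with the glucocorticoid dexamethasone at 0.1 uM and 10% serum, and were harvested on day 5. Lentivirus and hairpin RNA were therefore present in the controls too, and no uninfected or interferon-treated cells are among the 4 libraries. The comparison addressed here is whether the machinery that detects RNA, and the genes that interferon induces, differed in level when Safb was knocked down.

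RIG-I-like receptors in the cytosol bind viral or misplaced self RNA and act through the adaptor MAVS on the kinase TBK1, which activates IRF3 and IRF7 to switch on interferon genes. Secreted type I interferon binds the IFNAR receptor, and its kinases JAK1 and TYK2 activate STAT factors, among them STAT2, which acts with IRF9 in the factor ISGF3. ISGF3 binds the interferon-stimulated response element (ISRE), while type II interferon acts through the IFNGR receptor, JAK1 and JAK2 on STAT dimers that bind gamma-activated sites (GAS). Hepatocytes respond to both types, and many sensors are themselves interferon-induced.

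Levels are in TPM, which is corrected for gene length, so genes can be compared with each other within a library. Read totals cannot be recovered from TPM. The sequencing depth is therefore unknown, and counting intervals are not printed. Safb was at 23.8 and 23.3 TPM in the shCtrl libraries and 15.8 and 15 TPM in the shSafb libraries, 1.53-fold lower (limma adjusted p = 0.00411), so most Safb RNA remained. Of 10 hepatocyte markers all averaged at least 1 TPM. The leukocyte markers Nkg7, Itgax, Cd3e and Siglech were listed at 0 in all 4 libraries, as were the macrophage markers Adgre1, Clec4f and Marco and the endothelial markers Cdh5 and Kdr. Ptprc, another leukocyte marker, was at 0.303 and 0.272 TPM in shCtrl and 0.452 TPM in each shSafb library. The summed TPM of the 7 macrophage markers was 117 to 121 in shCtrl and 66.2 to 68.2 in shSafb, nearly all of it Cd14. Csf1r, a low macrophage marker, went the other way, at 0.239 and 0.450 against 1.92 and 1.72 TPM (limma adjusted p = 0.00852). The sum of 3 cholangiocyte markers was 379 to 392 against 723 to 730, mostly Krt19. Sox9, another of the 3, was lower (mean 65.5 against 48.9 TPM), and Epcam did not exceed 0.112 TPM. The hepatocyte markers summed to 9522 to 9571 TPM against 13373 to 13547 TPM, a rise carried by Trf (mean 2435 against 6796 TPM), while Alb (362 against 124 TPM) and Apoa1 (56.4 against 28.1 TPM) were lower. Mitochondrial genes held 0.845% and 0.703% of the TPM in shCtrl and 0.318% and 0.343% in shSafb. Whether these shifts bear on the genes below was not tested. In bulk RNA, fewer expressing cells and less RNA per cell cannot be told apart. Nothing in the labels states that the 2 libraries of a group came from separate cultures. The p-values thus cover only the spread between these libraries, which may be technical.

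In shCtrl cells the most abundant of the 43 genes was Ifngr1, the ligand-binding chain of the interferon gamma receptor, at a mean of 153 TPM. Bst2 (92.7 TPM), Irf1 (89.7), Stat3 (72.6), Ifi35 (63.4) and Irf3 (51.8) followed. Above 50 TPM there were 6 genes, 15 lay between 10 and 50 TPM, 16 between 1 and 10 TPM and 6 under 1 TPM. The genes under 1 TPM, Oas1a, Oasl1, Rtp4, Mx1, Rsad2 and Ifi44, are classical interferon-induced genes. Of 21 interferon genes, 18 were listed at 0 in all 4 libraries. The other 3 did not exceed 0.203 TPM, the value of Ifnb1 in shSafb 2 alone, with 0 in the other 3 libraries.

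Of the 36 members with a mean of at least 1 TPM, which were tested, 6 were higher and 12 lower in shSafb, and 18 did not pass the test (limma, Benjamini-Hochberg adjusted p under 0.05 over all 13111 tested genes). The 6 higher were Usp18, Irf5, Isg20, Tbk1, Ifngr2 and Bst2. The 12 lower were Xaf1, Gbp2, Ifngr1, Irf1, Ifit1, Ddx58, Parp9, Irf9, Ifit2, Ifnar2, Ifi35 and Ifnar1. Among all tested genes 44.3% were called, 21.9% higher and 22.4% lower, so the 18 of 36 members called lie near the background share. The median log2 change of the tested members was -0.07, against 0.00 for all tested genes. When calls also had to reach a fold of 1.5 on the fitted log2(scaled TPM + 1) scale, 4 members were higher and 6 lower. There 20.7% of all tested genes passed in either direction. Parp9, 1.57-fold lower by mean TPM, missed this cut (log2 change -0.58). In 28 of the 36 members the shCtrl and shSafb values did not overlap (11 higher, 17 lower), beside 74.7% of all tested genes. The summed TPM of the 43 genes was 948 and 910.2 in shCtrl and 789 and 771 in shSafb. By role, the net falls were largest in the receptors (246 and 241 against 157 and 155) and the IRF and STAT factors (269.9 and 259.6 against 226 and 212). Most of the receptor fall was that of Ifngr1 (mean 153 against 74.9 TPM). Most of the factor fall was that of Irf1 (89.7 against 44.7 TPM), and 5 of the 8 factors were not called. Rises and falls partly cancelled in such sums. Among the sensing genes, Ddx58 was lower (mean 43.1 against 25.1 TPM) while Tbk1 was higher (19.9 against 33.1 TPM).

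**Figure D1:**
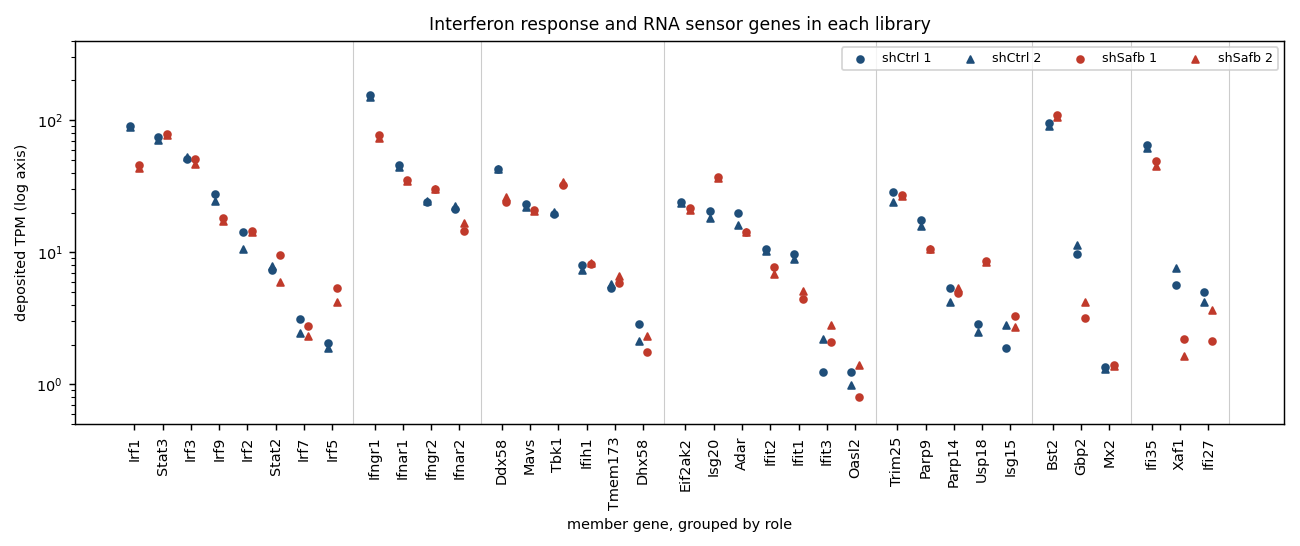
Deposited TPM (log axis) of the 36 tested members in each of the 4 libraries, grouped by role and ordered by shCtrl mean; blue marks are shCtrl, red marks shSafb, circles library 1 and triangles library 2. Ifngr1 and Irf1 stand at about the same height in both libraries of a group and clearly lower in shSafb, while Usp18, Irf5, Isg20 and Tbk1 stand higher.

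**Figure D2:**
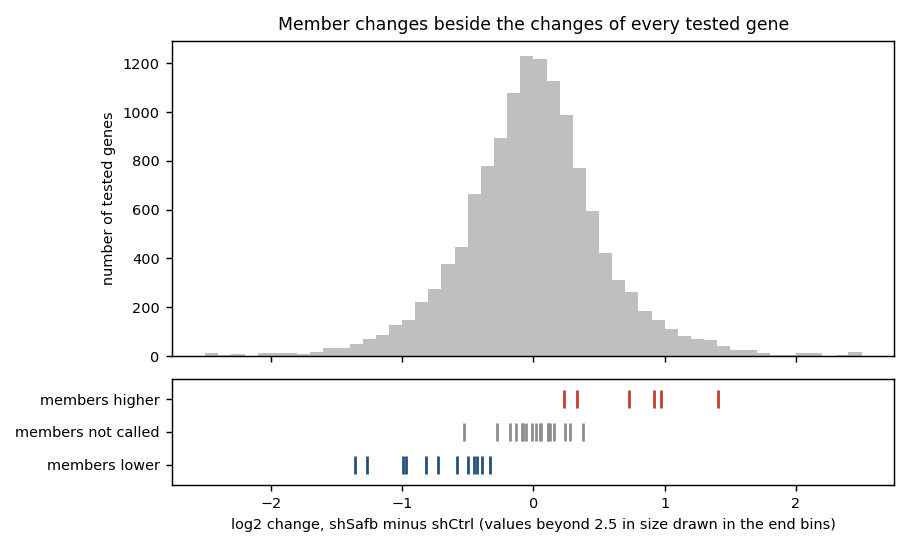
Upper panel: number of tested genes (13111) by log2 change, shSafb minus shCtrl, in steps of 0.1. Lower panel: the 36 tested members as ticks, red for the 6 higher, grey for the 18 not past the threshold and blue for the 12 lower. The members lie within the range of all tested genes, from -1.36 for Xaf1 to 1.41 for Usp18.

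Among the transcription factors, Irf1 fell and Irf5 rose, each by about 1 on the log2 scale, while the sensing factors Irf3 and Irf7 did not pass the test. Irf1 encodes an activator of interferon gamma target genes and was at 90.5 and 89.0 TPM in shCtrl against 45.8 and 43.5 TPM in shSafb. Both shSafb libraries were far below both controls, and the mean went from 89.7 ± 1.01 to 44.7 ± 1.65 TPM (SD, n = 2 each; log2 change -0.97 ± 0.05 SE, adjusted p = 8.63e-04). Irf9, the DNA-binding subunit of ISGF3, was at 27.5 and 24.3 TPM against 18.2 and 17.3 TPM, and fell by 0.50 on the log2 scale (SE 0.08, adjusted p = 0.00797). Irf5, which acts downstream of Toll-like receptors mainly in myeloid cells, was low in every library. It measured 2.05 and 1.89 TPM in shCtrl and 5.34 and 4.18 TPM in shSafb, a log2 change of 0.97 ± 0.15 (adjusted p = 0.00788). Of the exonic bases of Irf5, 14.1% overlap Tnpo3 on the opposite strand. Where counting ignored strand, reads of Tnpo3 could add to the Irf5 level by an amount that is not known.

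The other factors did not pass. Irf3, the factor that TBK1 activates first, was at 50.9 and 52.6 TPM against 50.8 and 46.7 TPM (log2 change -0.06, 95% interval -0.25 to 0.13). Irf7, which amplifies the type I response, stayed low and its groups overlapped (3.13 and 2.46 against 2.76 and 2.33 TPM; interval -0.46 to 0.30). Irf2, a relative of Irf1 that often opposes it, was at 14.2 and 10.6 TPM in shCtrl and 14.6 and 14.2 TPM in shSafb. Only shCtrl 2 was low, with shCtrl 1 close to both shSafb libraries, and without shCtrl 1 the log2 change was 0.40 and passed (adjusted p = 0.0469, against 0.20 with all libraries). Stat3, the acute phase factor, was at 74.4 and 70.9 against 78.8 and 77.5 TPM (log2 change 0.13, adjusted p = 0.0753).

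Stat2, which acts with Irf9, did not pass the test. It measured 7.29 and 7.85 TPM in shCtrl and 9.57 and 5.91 TPM in shSafb, so the shSafb libraries lay on either side of the controls (log2 change 0.02, interval -0.57 to 0.61), and its sign turned in 4 alternative settings. Without shSafb 1 its log2 change was -0.29 (adjusted p = 0.195). Irf9 was thus lower while Stat2 was not called.

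**Figure D3:**
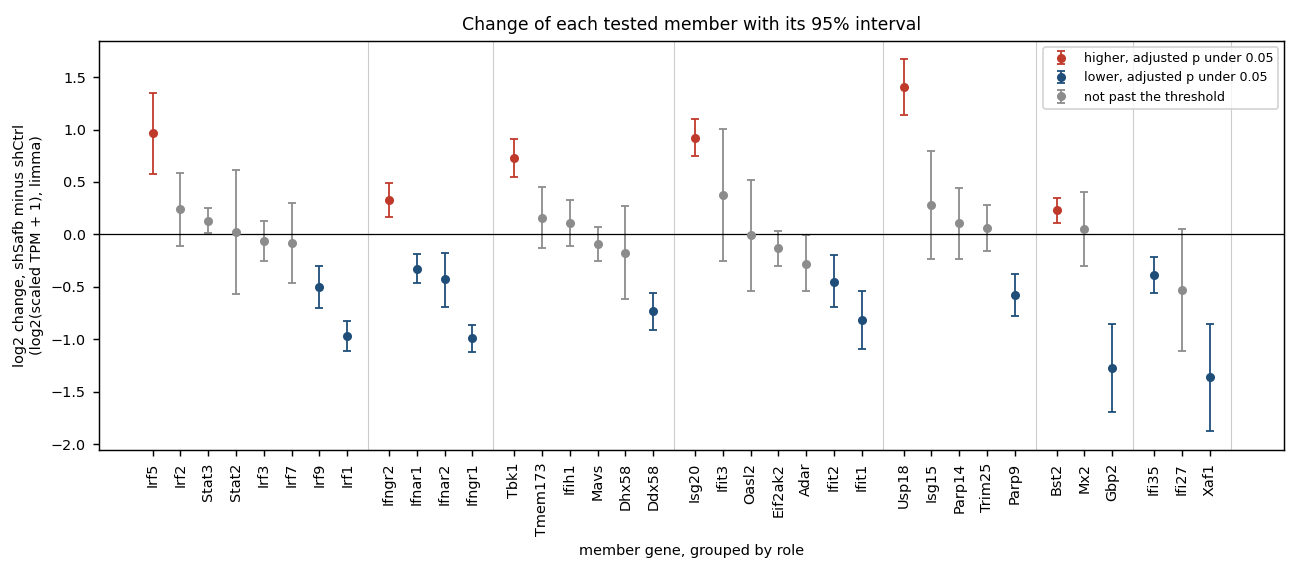
Log2 change of each of the 36 tested members, shSafb minus shCtrl on the log2(scaled TPM + 1) scale (limma), grouped by role; bars are 95% intervals, red higher and blue lower at adjusted p under 0.05, grey not past the threshold. All 4 receptor genes are called, 3 lower and 1 higher, beside 44.3% of all tested genes, while 4 of the 6 sensing genes cross zero.

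All 4 receptor chains passed the test, 3 lower and 1 higher, where 44.3% of all tested genes passed. Ifngr1 was at 155 and 150.1 TPM in shCtrl and at 76.9 and 72.8 TPM in shSafb. Its mean of 74.9 ± 2.92 TPM in shSafb was 2.04-fold below that of 153 ± 3.46 TPM in shCtrl (log2 change -0.99 ± 0.05, adjusted p = 7.82e-04). Ifngr2, the partner chain that carries JAK2, went the other way, with 24.2 and 24.3 TPM in shCtrl and 30.1 and 30.3 TPM in shSafb (log2 change 0.33 ± 0.06, adjusted p = 0.0131). The ratio of the mean TPM of the 2 chains therefore narrowed. Ifnar1, a chain of the type I receptor, was at 45.7 and 44.3 against 35.2 and 34.9 TPM (log2 change -0.33 ± 0.05, adjusted p = 0.00861). Ifnar2, the chain that binds interferon first, was at 21.3 and 22.4 against 14.6 and 16.8 TPM (log2 change -0.43 ± 0.10, adjusted p = 0.0228). Only the Ifngr1 call held without each library in turn. Ifnar1 lost its call without shSafb 2 (adjusted p = 0.0521). Ifnar2 lost it without shCtrl 1 (0.0524), shCtrl 2 (0.0850) or shSafb 1 (0.0875), and Ifngr2 without shCtrl 1 (0.0532), shSafb 1 (0.0627) or shSafb 2 (0.0614).

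Ifnar1, Ifnar2 and Ifngr2 are neighbours. Ifnar2 (chr16:91372783-91405589), Il10rb (chr16:91406164-91425834), Ifnar1 (chr16:91485238-91507441) and Ifngr2 (chr16:91547072-91565623) lie on the plus strand of mm10 within 193 kb. Il10rb, a chain shared by the interferon lambda and interleukin 10 receptors, was chosen for its position after values were seen. It was at 18.9 and 20.7 TPM in shCtrl and 15 and 15.3 TPM in shSafb (log2 change -0.34 ± 0.09, adjusted p = 0.0353). It no longer passed without shCtrl 2 (adjusted p = 0.0956), shSafb 1 (0.129) or shSafb 2 (0.110). Along this cluster the first 3 genes were lower and the fourth, Ifngr2, higher in shSafb. Ifnar2 shares 9.5% of its exonic bases with the predicted gene Gm21970 on the same strand.

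Of 25 tested genes on a list of further receptor, kinase and feedback genes, 7 were higher and 8 lower (median log2 change 0.00), or 15 of 25 called beside 44.3% of all tested genes. By size, the top 3 called changes were rises of Socs3, Socs1 and Ptpn6. Other inhibitor genes on the list, among them Socs2 (log2 change 0.11), Cish (-0.04) and Ptpn1 (-0.05), were not called. The phosphatase gene Ptpn11 was lower (log2 change -0.40, limma adjusted p = 0.00417). Socs3, which blocks JAK kinases at cytokine receptors, was at 33.9 and 33.1 TPM in shCtrl and 68.9 and 70.2 TPM in shSafb (log2 change 1.06 ± 0.05, adjusted p = 7.38e-04). Socs1, its relative at the interferon receptors, was low at 1.93 and 2.62 against 4.34 and 4.85 TPM (log2 change 0.80 ± 0.16, adjusted p = 0.0174). The Socs1 call was lost without shCtrl 1 (adjusted p = 0.0533), shSafb 1 (0.0547) or shSafb 2 (0.0724). Ptpn6, the phosphatase SHP-1, was at 16.2 and 14.8 against 24.9 and 22.7 TPM (log2 change 0.61 ± 0.08, adjusted p = 0.00510).

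Of the receptor kinases, named after their values were seen, Tyk2 and Jak1 were lower and Jak2 higher. Tyk2, the kinase held by Ifnar1, was at 24.5 and 23.2 against 15.5 and 15.4 TPM (log2 change -0.57 ± 0.06, adjusted p = 0.00336). Jak1, which serves both receptors, was at 75.5 and 71.4 against 58.8 and 60.6 TPM (log2 change -0.27, adjusted p = 0.0124). Jak2, held by Ifngr2, was at 54.9 and 51.5 against 63.9 and 62.8 TPM (log2 change 0.27, adjusted p = 0.0122). The Jak1 call was lost without shSafb 1 (adjusted p = 0.0740) or shSafb 2 (0.0539), and the Jak2 call without shCtrl 2 (0.0512), shSafb 1 (0.0669) or shSafb 2 (0.0528).

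Of the 6 sensing genes, Ddx58 fell and Tbk1 rose, and the rest did not pass. Ddx58 encodes RIG-I and lies at chr4:40203773-40239828 on the minus strand. It was the most abundant of the 3 RIG-I-like receptor genes in shCtrl, at 43.1 and 43 TPM, and both shSafb libraries were well below, at 24.0 and 26.1 TPM (1.72-fold lower; log2 change -0.73 ± 0.07, adjusted p = 0.00230). Tbk1, the kinase on which RNA and DNA sensing converge, was at 19.6 and 20.1 TPM in shCtrl and at 32.2 and 34.0 TPM in shSafb. Its mean of 19.9 ± 0.373 TPM in shCtrl rose 1.67-fold, 33.1 ± 1.32 TPM in shSafb (log2 change 0.73 ± 0.07, adjusted p = 0.00238). The sensor and the kinase downstream of it thus moved in opposite directions by the same size, and both calls held without each library in turn.

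Ifih1, encoding MDA5, which reads long base-paired RNA, was at 8.04 and 7.34 TPM against 8.15 and 8.30 TPM (log2 change 0.11, interval -0.11 to 0.33). Dhx58, encoding LGP2, a sensor relative without signalling domains, was at 2.84 and 2.12 against 1.76 and 2.31 TPM, with overlapping groups. Mavs was at 23.2 and 21.9 against 20.9 and 20.7 TPM (interval -0.25 to 0.07). Tmem173, encoding STING, the adaptor of DNA sensing, was at 5.36 and 5.77 against 5.88 and 6.58 TPM (interval -0.13 to 0.45). The Mavs interval stays within 0.25 in size on the log2 scale, whereas those of Dhx58 (-0.62 to 0.27) and Tmem173 are wide. Such intervals cover only the spread between these libraries.

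A list of 49 further sensing relays and regulators held 42 tested genes, of which 13 were higher and 8 lower (median log2 change -0.05), or 21 of 42 called beside 44.3% of all tested genes. The 3 largest called changes were all falls. Rnf135, the ubiquitin ligase Riplet that activates RIG-I, was at 50.6 and 49.8 TPM in shCtrl and 28.3 and 25.8 TPM in shSafb (log2 change -0.84 ± 0.07, adjusted p = 0.00170). Rnf125, a ligase that marks RIG-I for degradation, was at 4.09 and 3.81 against 1.97 and 1.39 TPM (log2 change -0.88 ± 0.15, adjusted p = 0.0122), a call lost without shCtrl 1 (adjusted p = 0.0605) or shCtrl 2 (0.0533). Prkra, the RNA-binding activator of PKR, was at 29.1 and 30.6 against 17.9 and 15.3 TPM (log2 change -0.79 ± 0.10, adjusted p = 0.00510). An activating and a degrading ligase of RIG-I were thus lower along with the Ddx58 gene itself.

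Partners of TBK1 were looked up after their values were seen, and 4 of them, Ikbke, Azi2, Tank and Tbkbp1, were higher. Other genes of the list of relays, likewise picked after the fact, went both ways. Optn (log2 change 0.39) and Tax1bp1 (0.53) were called higher, while Traf3 (-0.07) and Traf6 (-0.05) were not called. Ikbke, the related kinase, was at 41.4 and 44.8 against 53.1 and 57.0 TPM (log2 change 0.37, adjusted p = 0.0213). The scaffold genes were higher by 0.40 for Azi2 (adjusted p = 0.00984), 0.37 for Tank (0.0201) and 0.53 for Tbkbp1 (0.0361) on the log2 scale, all smaller than the change of Tbk1. Each of the calls of Ikbke, Azi2, Tank and Tbkbp1 was lost without at least 1 library. Without shSafb 1 the adjusted p was 0.0546 for Ikbke, 0.0506 for Azi2, 0.0870 for Tank and 0.126 for Tbkbp1. Without shSafb 2 it was 0.0861 for Ikbke, 0.0732 for Tank and 0.0988 for Tbkbp1. The Ikbke call (0.0637) and the Tank call (0.0711) were also lost without shCtrl 1, and that of Tbkbp1 without shCtrl 2 (0.119) or with a filter at a mean of 0.1 TPM (0.0547). Of the endosomal RNA sensing pair, also chosen after the fact, Tlr3 was at 6.13 and 6.59 against 8.53 and 8.66 TPM (log2 change 0.41, adjusted p = 0.0263). Its adaptor gene Ticam1 was at 11.8 and 10.1 against 6.96 and 7.46 TPM (log2 change -0.52, adjusted p = 0.0144). Tlr3 lost its call without shCtrl 1 (adjusted p = 0.0917), shSafb 1 (0.0930) or shSafb 2 (0.0990), and Ticam1 without shCtrl 1 (0.0572) or shSafb 1 (0.0687).

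**Figure D4:**
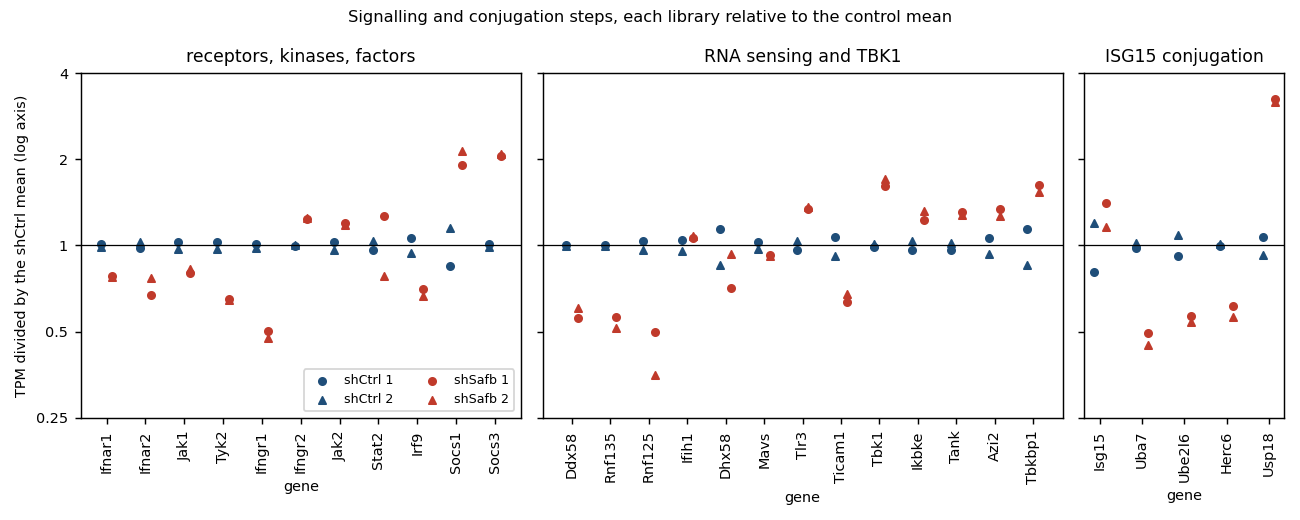
TPM of each library divided by the shCtrl mean of the gene (log axis) for receptor signalling, RNA sensing and ISG15 conjugation genes; blue shCtrl, red shSafb, circles library 1, triangles library 2. Within each panel some genes lie below 1 and others above it in both shSafb libraries: Ifngr1, Tyk2, Ddx58, Rnf135 and Uba7 are below, Socs3, Tbk1 and Usp18 above.

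Promoters of the members were read in RefSeq windows of 300 bases, 250 before and 50 after the start, on GRCm38.p6, which held 34 of the 43 genes. Dhx58, Tmem173, Ifi27, Usp18, Mx1, Mx2, Parp9, Parp14 and Rtp4 were not matched. An ISRE was searched as GAAA, any 2 bases and GAAA, and a GAS as TTCNNNGAA, on both strands. ISRE letters were present in 13 of the 34 members and in 3.99% of 27025 genes with a window, and GAS letters in 11 of 34 and 9.55%. An ISRE was found in 1 of 5 members called higher, 3 of 11 called lower, 6 of 13 tested but not called and 3 of 5 under the filter. For GAS the same groups held 2 of 5, 5 of 11, 3 of 13 and 1 of 5. Whether either motif is tied to the calls was not tested. So the members with ISRE letters were found among genes that rose, fell and did not pass. The 3 called members with ISRE letters ahead of the RefSeq start are printed below because their changes differ in direction. They run 5′ to 3′ on the strand of the gene, with the ISRE letters of either strand in capitals. They lie at chr8:71537473-71537722 (Bst2, minus strand), chr3:142620413-142620631 (Gbp2, plus strand) and chr19:34640639-34640888 (Ifit1, plus strand).
Bst2: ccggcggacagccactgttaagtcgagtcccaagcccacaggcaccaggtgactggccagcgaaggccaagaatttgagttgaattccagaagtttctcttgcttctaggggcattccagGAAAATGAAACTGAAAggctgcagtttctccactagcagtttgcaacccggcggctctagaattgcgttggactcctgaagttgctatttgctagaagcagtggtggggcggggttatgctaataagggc
Gbp2: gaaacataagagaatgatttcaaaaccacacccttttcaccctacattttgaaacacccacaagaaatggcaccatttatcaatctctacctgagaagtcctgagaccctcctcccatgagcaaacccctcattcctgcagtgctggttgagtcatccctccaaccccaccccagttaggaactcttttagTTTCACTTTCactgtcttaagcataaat
Ifit1: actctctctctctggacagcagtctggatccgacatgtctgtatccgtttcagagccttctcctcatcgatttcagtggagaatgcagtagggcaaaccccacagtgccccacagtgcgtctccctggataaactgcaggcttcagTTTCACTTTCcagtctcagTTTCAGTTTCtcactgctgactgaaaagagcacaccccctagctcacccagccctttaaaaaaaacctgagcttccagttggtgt
In Bst2, which was higher in shSafb, a pair of overlapping matches starts at -130 and -124 from the RefSeq start. Gbp2 holds 1 match at -59 and Ifit1 has matches at -104 and -85, and both genes were lower. In the GENCODE annotation Gbp2 starts at chr3:142620602, so its match (chr3:142620604-142620613) lies just inside the annotated gene. Irf1, also lower, holds no ISRE letters in its windows and 1 GAS match, TTCCCCGAA, at -90 (chr11:53769924-53769932). Isg15 holds 3 overlapping ISRE matches, GAAAAGGAAA at -78, GAAACCGAAA at -72 and GAAACAGAAA at -66, and was not called. A match of letters is a description and does not show binding.

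Of the 9 genes whose products bind, edit or degrade RNA, 7 were tested. Ifit1 and Ifit2 fell and Isg20 rose. Ifit1, whose product binds RNA with a foreign cap structure, was at 9.78 and 8.82 TPM in shCtrl and 4.44 and 5.09 TPM in shSafb (1.95-fold lower; log2 change -0.82 ± 0.10, adjusted p = 0.00502). Ifit2 was at 10.6 and 10.3 against 7.67 and 6.88 TPM (log2 change -0.45 ± 0.09, adjusted p = 0.0183). The Ifit2 call was lost without shCtrl 1 (adjusted p = 0.0671), shCtrl 2 (0.0685) or shSafb 2 (0.0814). Ifit3 lies between them on chromosome 19 in a cluster of 99.3 kb, and was at 1.24 and 2.19 against 2.10 and 2.83 TPM, with overlapping groups (log2 change 0.38, interval -0.25 to 1.01). Stretches at least 95% identical to Ifit3b cover 97.4% of the Ifit3 transcript, so reads could be shared between these copies and the Ifit3 value is uncertain. Whether the change of Ifit3 differs from that of its neighbours was not tested.

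Isg20, an exonuclease of single-stranded RNA, was at 20.5 and 18.3 TPM in shCtrl and 37.2 and 36.8 TPM in shSafb. Its mean rose 1.91-fold, 19.4 ± 1.58 TPM in shCtrl and 37.0 ± 0.267 TPM in shSafb (log2 change 0.92 ± 0.07, adjusted p = 0.00129), and it was the most abundant of the 9 genes in the knockdown. Eif2ak2, the RNA-activated kinase PKR, was at 24.0 and 23.7 against 21.8 and 20.9 TPM (log2 change -0.13, interval -0.30 to 0.03). Adar, which edits adenosine to inosine in paired RNA and so marks it as self, was at 19.8 and 16.1 against 14.2 and 14.3 TPM. Its log2 change of -0.28 did not pass (adjusted p = 0.0822), except without shCtrl 2 (-0.40, adjusted p = 0.0396). The Adar exons overlap Chrnb2 on the opposite strand over 16.8% of their bases. Oasl2, of the oligoadenylate synthetase-like family, was near 1 TPM with overlapping groups (1.25 and 0.989 against 0.799 and 1.39 TPM).

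In the ISG15 group Usp18 rose most of the 36 tested members, and Parp9 fell. ISG15 is a ubiquitin-like protein that is attached to other proteins in interferon-exposed cells, and USP18 removes it and also damps the type I receptor. Usp18 (chr6:121245906-121270917, plus strand) was at 2.86 and 2.47 TPM in shCtrl and 8.65 and 8.48 TPM in shSafb. The means were 2.67 ± 0.279 and 8.56 ± 0.119 TPM, 3.21-fold apart (log2 change 1.41 ± 0.10, adjusted p = 0.00133). Of its exonic bases 4.4% overlap Gm44148 on the opposite strand. Isg15 itself was low, at 1.90 and 2.81 against 3.30 and 2.72 TPM, and its groups overlapped (log2 change 0.28, interval -0.23 to 0.80). A near-identical stretch in the entry AC151275.1 covers 63.8% of the Isg15 transcript, so its level is uncertain. Trim25, a ubiquitin ligase of the RIG-I pathway, was at 28.7 and 24.1 against 27.2 and 26.7 TPM (log2 change 0.06, interval -0.16 to 0.28).

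The enzymes that attach ISG15 were on a list of 60 other interferon-stimulated genes. Uba7, the activating enzyme, was at 19.3 and 20.1 TPM in shCtrl and 9.78 and 8.81 TPM in shSafb (log2 change -0.99 ± 0.09, adjusted p = 0.00224). Ube2l6, the conjugating enzyme, and Herc6, a ligase for ISG15 in the mouse, were named after their values were seen. Ube2l6 was at 4.14 and 4.89 against 2.56 and 2.44 TPM (log2 change -0.63, adjusted p = 0.0199), and Herc6 at 6.23 and 6.34 against 3.87 and 3.53 TPM (log2 change -0.61, adjusted p = 0.0108). The genes of the attaching enzymes were thus lower while the gene of the removing enzyme was higher. Ube2l6 lost its call without shCtrl 2 (adjusted p = 0.0772), shSafb 1 (0.0679) or shSafb 2 (0.0772), and Herc6 without shCtrl 2 (0.0519) or shSafb 2 (0.0519).

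Parp9 and Parp14 encode ADP-ribosyltransferase family members induced by interferon. Parp9 (chr16:35938470-35972605, plus strand) was at 17.5 and 15.7 TPM in shCtrl and 10.5 and 10.6 TPM in shSafb (1.57-fold lower; log2 change -0.58 ± 0.08, adjusted p = 0.00525). Dtx3l, its protein partner, starts on the opposite strand (chr16:35926511-35939151), and the 2 gene bodies overlap at their starts. Chosen for that position after values were seen, Dtx3l was at 13.4 and 12 against 7.16 and 8.64 TPM (log2 change -0.60 ± 0.11, adjusted p = 0.0146), a call lost without shCtrl 1 (adjusted p = 0.0652) or shSafb 1 (0.0521). This divergent pair was lower by nearly the same amount. Reads of the overlap, 9.4% of the Parp9 exonic bases, cannot be told apart where counting ignored strand. Parp14, 54966 bases from Dtx3l, was at 5.41 and 4.23 against 4.95 and 5.32 TPM, with overlapping groups (log2 change 0.11, interval -0.23 to 0.44).

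Among the GTPases and restriction factors 3 of 6 were tested. Gbp2, a guanylate-binding protein gene strongly induced by interferon gamma, was at 9.70 and 11.3 TPM in shCtrl and 3.17 and 4.23 TPM in shSafb. It was 2.83-fold lower, 10.5 ± 1.10 TPM on average in shCtrl and 3.70 ± 0.749 TPM in shSafb (log2 change -1.27 ± 0.16, adjusted p = 0.00477). Bst2, or tetherin, which holds budding virus at the cell surface, was at 95.6 and 89.8 against 109 and 105 TPM. Its log2 change of 0.23 ± 0.05 was the smallest of the called ones (adjusted p = 0.0171). Bst2 lost its call without shCtrl 1 (adjusted p = 0.0518), shCtrl 2 (0.0677), shSafb 1 (0.0880) or shSafb 2 (0.0570), and without the variance trend (0.0503). Mx2, of the dynamin-like GTPase family, is annotated as a polymorphic pseudogene. It stayed between 1.31 and 1.41 TPM in all 4 libraries (log2 change 0.05, interval -0.30 to 0.40), and 34.8% of its transcript is near-identical to Mx1.

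Of the other induced genes, Xaf1 and Ifi35 fell. Xaf1, encoding a proapoptotic partner of XIAP, was at 5.67 and 7.60 TPM in shCtrl and 2.21 and 1.64 TPM in shSafb. The fall of its mean, 6.64 ± 1.36 TPM in shCtrl and 1.92 ± 0.404 TPM in shSafb, was 3.45-fold and the largest among the called members (log2 change -1.36 ± 0.20, adjusted p = 0.00685). Ifi35 was at 64.7 and 62.1 against 49.5 and 45.2 TPM (log2 change -0.39 ± 0.06, adjusted p = 0.00975), with 16.8% of its exonic bases overlapping Gm11626 on the opposite strand. Ifi27 was at 5.00 and 4.23 TPM in shCtrl and 2.14 and 3.65 TPM in shSafb. Its log2 change of -0.53 did not pass (adjusted p = 0.113), while without shSafb 2 it was -0.81 (adjusted p = 0.0337).

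The 7 members under the filter had a mean below 1 TPM, and are given as levels. Rsad2, encoding the antiviral enzyme viperin, was at 0.0363 and 0.0630 TPM in shCtrl and 0.230 and 0.272 TPM in shSafb, so it was very low in every library and the groups did not overlap. Oasl1 was at 0.785 and 0.634 against 1.09 and 1.02 TPM, also apart. Gbp3, which neighbours Gbp2 on chromosome 3, was at 1.02 and 1.24 against 0.668 and 0.398 TPM and stood lower like Gbp2. Mx1 (0.0481 to 0.161 TPM), Oas1a (0.363 to 0.863 TPM) and Rtp4 (0.540 to 0.992 TPM) overlapped between groups. Ifi44 was listed at 0 in shCtrl 2 and did not exceed 0.0929 TPM in the others. Near-identical stretches shared with Oas1g cover the whole Oas1a transcript. When every gene above 0 in at least 1 library was tested, Rsad2 was the only one of the 7 to pass (log2 change 0.25 ± 0.04, adjusted p = 0.0345). With a mean of at least 0.1 TPM required it did not pass (adjusted p = 0.117).

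Among the 60 other interferon-stimulated genes, 39 were tested, 5 higher and 13 lower, with a median log2 change of -0.18. The share called, 46.2%, lies near the 44.3% of all genes. The 3 largest called changes were falls of Gbp9, Uba7 and Tor3a. Gbp9, another guanylate-binding protein gene, was at 14.8 and 15.5 TPM in shCtrl and 6.55 and 6.52 TPM in shSafb (log2 change -1.07 ± 0.08, adjusted p = 0.00155). Tor3a, an interferon-responsive torsin ATPase gene, was at 10.0 and 8.53 against 4.32 and 4.02 TPM (log2 change -0.97 ± 0.11, adjusted p = 0.00341). Gbp9 and Gbp2 were thus both lower by over 1 on the log2 scale. Of the same gene family, Gbp4 (log2 change -0.39, limma adjusted p = 0.141) and Gbp7 (-0.23, 0.235) were not called.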

How the data were processed

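Strand-specific, ribosomal RNA-depleted libraries were made from total RNA, per the labels' protocols. The deposited table gives each gene a TPM value per library. HISAT2, HTSeq, StringTie and DESeq2 with mm10 are named in the submitters' processing notes, without roles, versions or annotation release. The use of strand in counting is not stated in these sources. Groups and replicate numbers come from the titles. The table held 52200 rows, and rows that repeated an identifier (6 identifiers) were added up. Coordinates and overlaps came from GENCODE mouse release M21 (GRCm38, the assembly of mm10). TPM summed to 999891 in each shCtrl and 999843 in each shSafb library.

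Genes with a mean of at least 1 TPM (13111) were tested. Each library was divided by its median ratio to the geometric mean over tested genes above 0 in all libraries (factors 1.03, 0.991, 0.992 and 0.995). log2(scaled TPM + 1) was fitted with limma 3.58.1 in R 4.3.3 with group as the only term and variances moderated along a trend on mean level (2 residual degrees of freedom, 2.61 prior). Tests were two-sided, Benjamini-Hochberg adjusted, at a threshold of 0.05. Log2 changes are shSafb minus shCtrl and understate changes of low genes. SDs are of deposited TPM over 2 libraries. An exact permutation of 2 against 2 libraries cannot reach 0.05 and was not used. Near-identical stretches (at least 95% over at least 100 bases) were found with BLAST 2.17.0.

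The members and lists were chosen with earlier results of these data known. The rule named every member, Safb, and from each related list the 3 largest called changes, except genes marked in the text as chosen after their values or position were seen. Safb2 and Sltm, also in the rule, had log2 changes of 0.36 and 0.37 (limma adjusted p = 0.0435 and 0.0139). Of the macrophage markers 1 was called higher and 1 lower, of the hepatocyte markers 3 and 2, of the cholangiocyte markers 1 and 1. Of 5 stellate or fibroblast markers 1 reached a mean of 1 TPM and 0 were called, and no endothelial or leukocyte marker did. Alternatives covered the pseudocount, filter, scaling, variance model, replicate block, each library left out and a fold threshold. Results for some genes are not reported here.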

Additional observations from a re-analysis of the deposited data

How the results depend on the processing

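Of the 18 member calls, 11 held under all 14 refits, and Irf5 and Xaf1 held under the 13 that tested them (a filter at a mean of 5 TPM left both out): other pseudocounts (0.1, 0.5), filters, scalings, variance models, the replicate block and each library left out. None reversed. The counts of 6 higher and 12 lower members ranged from 4 to 5 and from 10 to 11 without single libraries, and the median from -0.10 to -0.03. With a fold of at least 1.5 on the log2(scaled TPM + 1) scale, 6 members stayed lower. Then 1303 genes were higher and 1408 lower against 2867 and 2938. Without single libraries 1768 to 2124 genes were higher and 1961 to 2186 lower; the fit then rests on 3 libraries, with the lone sample assumed to vary like the other group. A further refit kept only protein-coding and some long noncoding gene types outside the mitochondrial genome. Besides small RNA and mitochondrial genes it dropped pseudogenes, Mx2 among them, and it rescaled TPM in place of the median ratio. There the member median was -0.11, against -0.07 in the main fit. That of all tested genes was -0.043, against 0.002.

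The replicate numbers in the titles share only a number. Across genes, the deviations of same-numbered libraries correlated at -0.0641, and with the replicate block 2540 genes were higher and 2686 lower, and 6 and 12 members, which changed no member's call. Signs turned only for 6 members that were not called. Without single libraries their log2 changes ranged from -0.12 to 0.01 for Irf3, -0.19 to 0.03 for Irf7, -0.29 to 0.33 for Stat2, -0.22 to 0.20 for Oasl2, -0.04 to 0.15 for Trim25 and -0.03 to 0.22 for Parp14. Stat2 also turned to -0.0039 with TPM as deposited and -0.01 in the refit limited to protein-coding and long noncoding genes. With no filter on low genes the calls of Socs1 (adjusted p = 0.0589), Il10rb (0.0642), Ikbke (0.0541), Tbkbp1 (0.106), Ube2l6 (0.0621) and Tlr3 (0.0746) were lost, and that of Tbkbp1 also with a filter at a mean of 0.1 TPM (0.0547); limma then tested more genes. The causes were not tested. The unknown depth limits what can be said of the 7 members under 1 TPM.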
